A study of Mus musculus with 8 samples.

Results

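AMPA receptors are the ion channels that carry most fast excitatory transmission at glutamate synapses. The channel is a tetramer of pore-forming subunits encoded by Gria1 (GluA1), Gria2 (GluA2), Gria3 (GluA3) and Gria4 (GluA4), and the edited form of GluA2 makes it nearly impermeable to calcium. Transmembrane AMPA receptor regulatory proteins (TARPs), among them Cacng2 (stargazin), Cacng3 and Cacng8, bring the channel to the surface, hold it at the synapse and slow its closing, and the cornichon proteins Cnih2 and Cnih3 also bind the channel and shape its export and kinetics. The neurons of the paraventricular nucleus of the thalamus (PVT) are glutamatergic and themselves receive glutamatergic input.

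These 9 genes, 4 pore-forming subunits, 3 TARPs and 2 cornichons, were chosen by name and are described here of 18939 genes counted in 8 libraries made by translating ribosome affinity purification (TRAP), in which ribosomes that carry a tagged protein are pulled down with the RNA they hold. All mice, 8 to 12 weeks old and on a C57Bl/6J background, were OPRM1cre X EGFP-L10a: Cre is made from the Oprm1 gene, which encodes the mu opioid receptor (MOR), and switches on the green fluorescent ribosomal protein in cells that express or have expressed it. The morphine group drank morphine in 0.2% saccharin, raised in steps to 0.5 mg/ml, over 11 days, and the control group drank 0.2% saccharin without morphine. Each group held 4 libraries, 2 labelled male (control replicates 1 and 2, morphine replicates 3 and 4) and 2 labelled female (control replicates 5 and 6, morphine replicates 7 and 8), each described by the study as pooled tissue of 2 mice of the same sex. The tissue was a gross dissection aimed at the PVT, so that tagged cells of neighbouring structures can be in it, and fewer cells of a type cannot be told apart from less RNA per cell.

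Depth ran from 37081346 to 43311792 total counts a library in the control group and from 31151106 to 47582947 in the morphine group. Control replicate 5, labelled female, held 2072 counts of 4 Y-linked genes as compared to 1 to 2 counts in the other libraries labelled female and 4240 to 6145 in those labelled male. Its counts thus go against its label, the sex of its mice is uncertain, and results are given with and without it where it matters. Markers of thalamic projection neurons were present in every library, among them Slc17a6 at 256 to 323 CPM (the counts of a gene scaled to a common library size) in the control group and 215 to 350 CPM in the morphine group. GABAergic neuron markers were present as well. Gad1 averaged 506 CPM in the control and 442 CPM in the morphine group, Gad2 624 and 466 CPM, and Slc32a1 64.4 and 67.0 CPM. The libraries thus did not hold RNA of glutamatergic neurons alone. Oprm1 itself averaged 25.3 CPM in the control and 16.5 CPM in the morphine group (edgeR, adjusted *P* = 0.21). Markers of cells outside the PVT were also present, and some differed between the groups, as described at the end.

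The deposited table lists counts per RefSeq transcript, and for Gria1, Gria2 and Gria4 it holds transcripts that differ by a pair of alternative exons (flip and flop) of equal length, of which each transcript carries 1. This exon encodes part of the ligand-binding domain and affects how fast the channel desensitizes. The exons are shown because they differ between rows of a gene whose counts are nearly equal, and the capitals mark the bases that differ between the exons of a pair. Each was read from the reference transcripts of GENCODE M21 on GRCm38 and is written on the transcript's strand, with the exon that comes first in the gene listed first.
Gria1, first exon, chr11:57309769-57309883, plus strand: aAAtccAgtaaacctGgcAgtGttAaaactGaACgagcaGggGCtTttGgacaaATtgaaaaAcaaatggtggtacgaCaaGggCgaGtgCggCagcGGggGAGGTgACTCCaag
Gria1, second exon, chr11:57310608-57310722, plus strand: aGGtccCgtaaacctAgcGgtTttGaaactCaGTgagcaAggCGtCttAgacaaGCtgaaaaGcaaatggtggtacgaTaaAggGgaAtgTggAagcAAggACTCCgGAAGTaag
Gria2, first exon, chr3:80691320-80691434, minus strand: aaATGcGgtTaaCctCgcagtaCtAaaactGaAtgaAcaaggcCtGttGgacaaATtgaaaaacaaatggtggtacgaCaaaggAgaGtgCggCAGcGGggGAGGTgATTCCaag
Gria2, second exon, chr3:80690404-80690518, minus strand: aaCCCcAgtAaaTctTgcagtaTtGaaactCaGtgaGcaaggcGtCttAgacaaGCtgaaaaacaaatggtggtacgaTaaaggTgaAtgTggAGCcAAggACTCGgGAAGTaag
Gria4, first exon, chr9:4432773-4432887, minus strand: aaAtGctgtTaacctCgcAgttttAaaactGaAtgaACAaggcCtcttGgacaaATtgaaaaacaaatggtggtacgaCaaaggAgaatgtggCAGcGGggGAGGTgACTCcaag
Gria4, second exon, chr9:4427030-4427144, minus strand: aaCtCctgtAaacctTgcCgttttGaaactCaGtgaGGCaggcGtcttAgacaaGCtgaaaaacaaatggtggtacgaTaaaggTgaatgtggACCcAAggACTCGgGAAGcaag

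All 6 exons were 115 bases long. The exons of a pair differed at 36 bases in Gria1, 36 in Gria2 and 31 in Gria4. The same exon was more alike between genes than the paired exons were within a gene: the first exons of Gria2 and Gria4 shared 108 of 115 bases and the second exons 106, whereas the exons within Gria2 shared 79 and those within Gria4 shared 84. The counts did not tell the rows with different exons apart. The Gria1 row with the second exon held 98.9 to 99.7% of the counts of the row with the first exon in the control group and 99.2 to 99.6% in the morphine group, and the corresponding ranges were 99.6 to 100% (control) and 99.8 to 100% (morphine) for Gria2. In Gria4 the row with the second exon held 99.2 to 99.4% and 99.0 to 99.5%. A read shared by transcripts is thus counted on each row, and exon choice was not analysed here. A further row of Gria2, which carries the same first exon as the main row, held 56.8 to 63.3% of the counts of the main row in the control and 59.4 to 63.7% in the morphine group, and a shorter row of Gria4 held 64.6 to 67.6% and 63.6 to 69.3%, so that the groups overlapped for both.

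Of the pore-forming subunits, Gria1, Gria2 and Gria3 had higher mean CPM with morphine than with saccharin alone, by 1.63-fold, 1.58-fold and 1.46-fold, whereas Gria4 differed by 1.13-fold. None of the 4 passed the adjusted threshold of 0.05 in edgeR over all genes, and Gria1, Gria2 and Gria3 passed it in DESeq2.

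Gria1 (chr11:57011571-57330244, GRCm38) stood at 184, 242, 154 and 231 CPM in control replicates 1, 2, 5 and 6 and at 249, 348, 315 and 411 CPM in morphine replicates 3, 4, 7 and 8. Every morphine library was above every control library, with morphine replicate 3 the closest to the control group. The means were 203 ± 40.7 and 331 ± 67.5 CPM (SD, n = 4 each), a log2 fold change of 0.71 (SE 0.17, 95% interval 0.33 to 1.08). The adjusted *P* was 0.133 with edgeR's quasi-likelihood test and 0.00993 with DESeq2, and the exact two-sided permutation test over the 70 arrangements of the libraries gave *P* = 0.0286, the smallest value that 4 against 4 allow.

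Gria2 (chr3:80681450-80804227) stood at 94.7, 121, 88.1 and 125 CPM in the control libraries, in the same replicate order, and at 130, 209, 160 and 178 CPM in the morphine libraries. The groups did not overlap, although control replicate 6 and morphine replicate 3 lay close together. Gria2 had a log2 fold change of 0.66 (SE 0.16, 95% interval 0.31 to 1.01), with an adjusted *P* of 0.127 in edgeR and 0.0107 in DESeq2 (exact permutation *P* = 0.0286, the smallest that can be reached). Gria3, on the X chromosome (chrX:41400819-41678601), stood at 49.2, 70.7, 58.8 and 53.9 CPM in the control and at 67.9, 101, 79.1 and 91.1 CPM in the morphine libraries. Control replicate 2 was above morphine replicate 3, so the groups overlapped by that pair. For Gria3 the log2 fold change was 0.54 (SE 0.14, 95% interval 0.23 to 0.86), with an adjusted *P* of 0.157 in edgeR and 0.0306 in DESeq2 (exact permutation *P* = 0.0571).

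Gria4 (chr9:4417893-4796234) stood at 66.9, 101, 76.1 and 74.1 CPM in the control and at 92.6, 89.0, 73.2 and 105 CPM in the morphine libraries. The highest control library and the lowest morphine library crossed, and the groups overlapped over most of their range. The log2 fold change was 0.18 with a 95% interval of −0.13 to 0.49 (edgeR adjusted *P* = 0.653), and the interval includes 0. The gene overlaps a long noncoding RNA gene, Gm46101, and the counting is not stated to use strand.

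Of the TARPs, the means of Cacng2 differed by less than the spread between libraries, while Cacng3 and Cacng8 had mean log2 fold changes of 0.39 and 0.63 that did not pass the adjusted threshold in edgeR or DESeq2. Cacng2 (chr15:77991919-78120220), which encodes stargazin, stood at 98.7, 105, 107 and 94.6 CPM in the control and at 103, 96.2, 100.4 and 107 CPM in the morphine libraries. The 8 values lay within a narrow band in which the groups were mixed, with means of 101 ± 5.75 and 101 ± 4.38 CPM (SD, n = 4 each). The log2 fold change of 0.0017 had a 95% interval of −0.18 to 0.19 (edgeR adjusted *P* = 0.995), and its sign turned under 7 of 19 alternatives, which ranged from −0.05 to 0.11. Cacng2 overlaps the noncoding genes Gm46520 and A730060N03Rik.

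Cacng3 (chr7:122671744-122769393) stood at 39.7, 49.6, 36.8 and 52.1 CPM in the control and at 44.3, 67.0, 61.3 and 60.8 CPM in the morphine libraries. Morphine replicate 3 lay among the control libraries and the other 3 morphine libraries above them. For Cacng3 the log2 fold change was 0.39 (SE 0.15, 95% interval 0.06 to 0.72, edgeR adjusted *P* = 0.321, exact permutation *P* = 0.0857). Cacng8 (chr7:3394042-3416266), which had the lowest counts of the 9 genes at 439 to 1438 per library, stood at 14.1, 18.5, 10.5 and 16.4 CPM in the control and at 13.7, 26.3, 22.4 and 29.6 CPM in the morphine libraries. Again only morphine replicate 3 fell within the control range, below 3 of the 4 control libraries. Cacng8 had a log2 fold change of 0.63 (SE 0.23, 95% interval 0.12 to 1.13), the widest interval of the 9 genes, with an adjusted *P* of 0.303 in edgeR and 0.146 in DESeq2 (exact permutation *P* = 0.114).

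Of the cornichons, Cnih3 stood higher in every morphine library than in any control library, and the libraries of Cnih2 overlapped. Cnih2 (chr19:5092868-5098521) stood at 195, 215, 153 and 220 CPM in the control and at 220.0, 261, 235 and 213 CPM in the morphine libraries. Control replicate 5 was far below the other 3 control libraries, which reached the lower morphine libraries. The log2 fold change of Cnih2 was 0.25 (SE 0.12, 95% interval −0.02 to 0.52, edgeR adjusted *P* = 0.464) and 0.13 without control replicate 5. Its last bases overlap Yif1a, a gene of the opposite strand. Cnih3 (chr1:181350459-181460641) stood at 43.5, 47.7, 47.1 and 46.2 CPM in the control and at 51.9, 68.4, 57.6 and 53.6 CPM in the morphine libraries. The control libraries were tightly grouped (46.1 ± 1.87 CPM, SD, n = 4) and the morphine libraries spread upwards from just above them (57.9 ± 7.41 CPM). The log2 fold change of Cnih3 was 0.33 (SE 0.10, 95% interval 0.10 to 0.55), with an adjusted *P* of 0.230 in edgeR and 0.0991 in DESeq2 (exact permutation *P* = 0.0286, the smallest that can be reached).

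**Figure D1:**
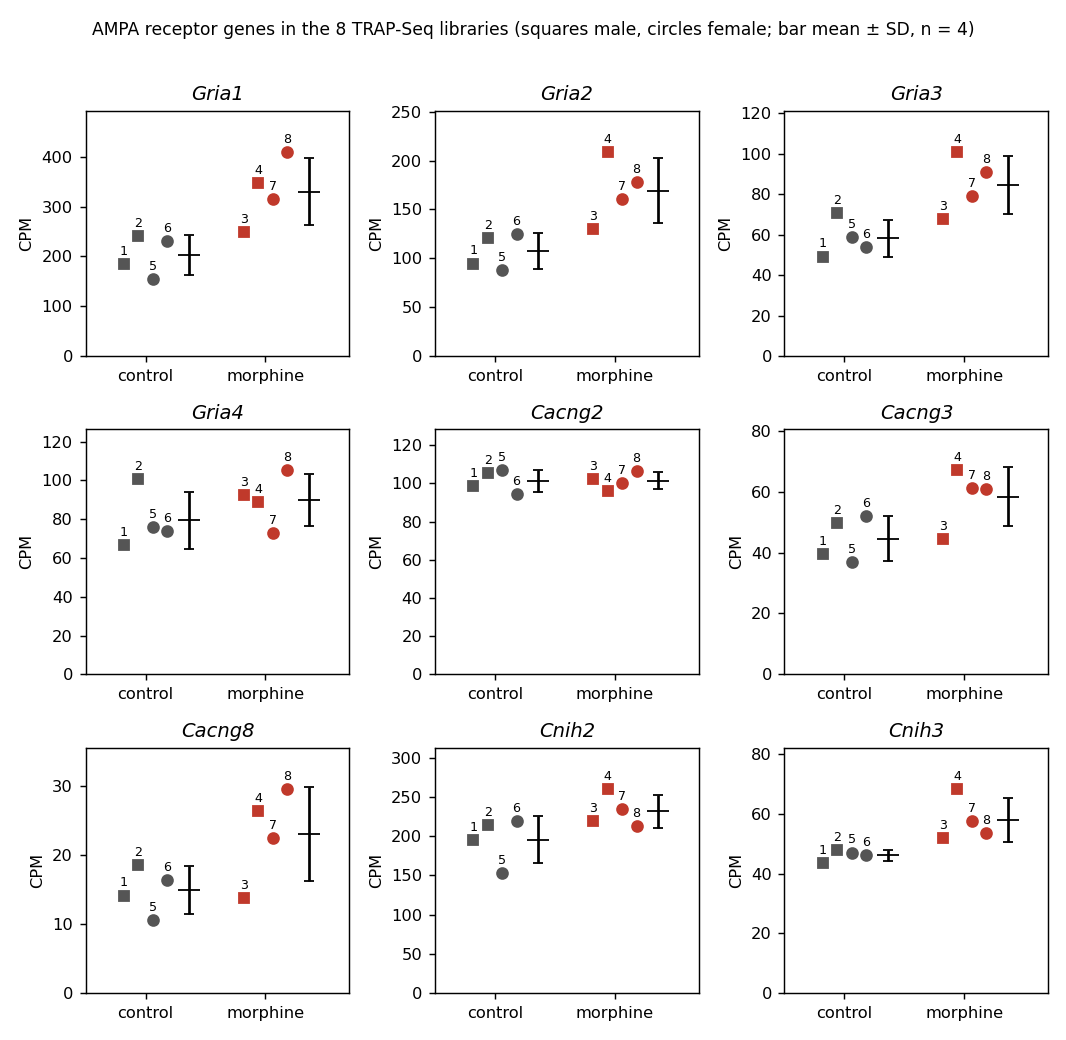
CPM of each of the 9 genes (y axis, from 0) in the 4 control and 4 morphine libraries, with the replicate number above each point, squares for libraries labelled male and circles for those labelled female; the bar beside each group is the mean ± SD. Gria1, Gria2 and Cnih3 did not overlap between groups, and morphine replicate 3 was the lowest morphine library for Gria1, Gria2, Gria3, Cacng3, Cacng8 and Cnih3.

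Over the 9 genes, 0 were called at an adjusted *P* under 0.05 in edgeR, as compared to 0.195% of all genes tested. At an unadjusted *P* under 0.05 in edgeR, 6 of 9 were higher in the morphine group (Gria1, Gria2, Gria3, Cacng3, Cacng8 and Cnih3) and 0 were lower, where the shares over all genes were 6.79% higher and 5.31% lower. DESeq2 called 3 of 9, all higher, where it called 1.7% of all genes as higher and 0.929% as lower. In 3 of 9 every morphine library was above every control library and in 0 every one was below, as compared to 3.34% and 3.21% of all genes. The median log2 fold change was 0.39 over the 9 genes, 0.60 over the pore-forming subunits, 0.39 over the TARPs and 0.29 over the cornichons, and 0.0088 over all genes. Without control replicate 5, the median over the 9 genes was 0.32, 0 were called in edgeR (0.106% of the genes tested) and 4 were at an unadjusted *P* under 0.05 (11.1% of the genes tested), namely Gria1 (log2 fold change 0.58), Gria2, Gria3 and Cnih3. With a score of telencephalic or choroid plexus markers in the model, which also differed between the groups, 0 of 9 were at an unadjusted *P* under 0.05 and the median was 0.21 or 0.13. In these fits 6.73% and 3.36% of all genes were at that threshold, so 0 of 9 is near the background. The 9 genes were measured in the same 8 libraries and are not independent of each other. They were also chosen with earlier results of these data known. Their counts beside the shares over all genes are thus a description and not a test of the set.

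**Figure D2:**
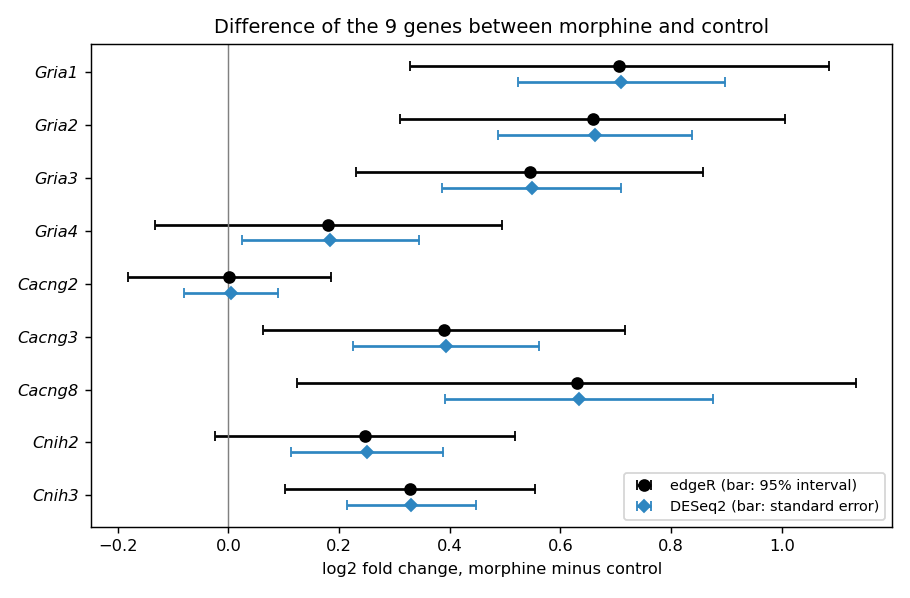
Log2 fold change of the 9 genes, morphine minus control (x axis), from edgeR with its 95% interval (black) and from DESeq2 with its standard error (blue). The estimates of both tools were nearly the same, from 0.0017 for Cacng2 to 0.71 for Gria1 in edgeR, and the intervals of Gria4, Cacng2 and Cnih2 included 0.

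Ratios between the genes within a library are given as a description without a test. The log2 ratio of Gria1 to Gria2 was 0.91 ± 0.08 in the control and 0.96 ± 0.19 in the morphine group (SD, n = 4 each), with overlapping libraries. The log2 ratio of Gria4 to Gria2 was −0.43 ± 0.25 and −0.90 ± 0.34, and that of Gria4 to Gria1 −1.35 ± 0.26 and −1.87 ± 0.30. The libraries overlapped for both. Against stargazin, the log2 ratio of Gria1 to Cacng2 was 0.98 ± 0.34 in the control and 1.68 ± 0.30 in the morphine group, with a single overlap, as morphine replicate 3 (1.28) lay just below control replicate 6 (1.29). The log2 ratio of Cacng8 to Cacng2 was −2.80 ± 0.39 and −2.20 ± 0.49, and that of Gria1 to Cacng8 was 3.78 ± 0.09 and 3.88 ± 0.20. Of the 9 ratios computed, only that of Gria2 to Cnih2 did not overlap between the groups (−1.04 to −0.80 in the control and −0.76 to −0.26 in the morphine libraries). The ratios are of CPM within a library and carry the lengths of the transcripts, which cancel in the comparison of the groups.

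Levels of different genes can be compared only per length, and the lengths were uncertain because the counted transcript models may differ from the reference ones. The order was therefore read per kilobase of the whole transcript and of its coding length, and is stated where both scales give it. Both scales divide the same counts of the whole transcript, so they are not independent of each other. The coding scale raises genes with much noncoding length. Of Cacng2 969 of 5510 bases were coding, and of Cacng8 1269 of 1380. Cnih2 had the highest level in the control group on both scales (146 ± 22.5 CPM per kilobase of transcript and 408 ± 63.0 per kilobase of coding length, SD, n = 4), and its control libraries did not overlap those of the next gene. Gria1 had the highest level of the pore-forming subunits on both scales, at 37.5 ± 7.55 CPM per kilobase of transcript and 74.5 ± 15.0 per kilobase of coding length. Cacng2 had the highest level of the TARPs on both scales (18.4 ± 1.04 and 105 ± 5.94) and Cacng8 the lowest (10.8 ± 2.50 and 11.7 ± 2.71), although per kilobase of transcript the libraries of Cacng3 overlapped those of both. Cacng2 and Cnih3, neighbours in the order, overlapped on both scales, as did Gria4 and Gria3. The place of Gria2 depended on the scale, 9th of 9 per kilobase of its long transcript (10.3 ± 1.80) and 6th per kilobase of coding length (40.5 ± 7.04). Of the summed level of the 4 pore-forming subunits per kilobase of transcript, Gria1 made up 50.8 ± 3.61% in the control and 55.2 ± 2.99% in the morphine group and Gria4 19.9 ± 2.24% and 15.2 ± 2.77%, with overlapping libraries for both.

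**Figure D3:**
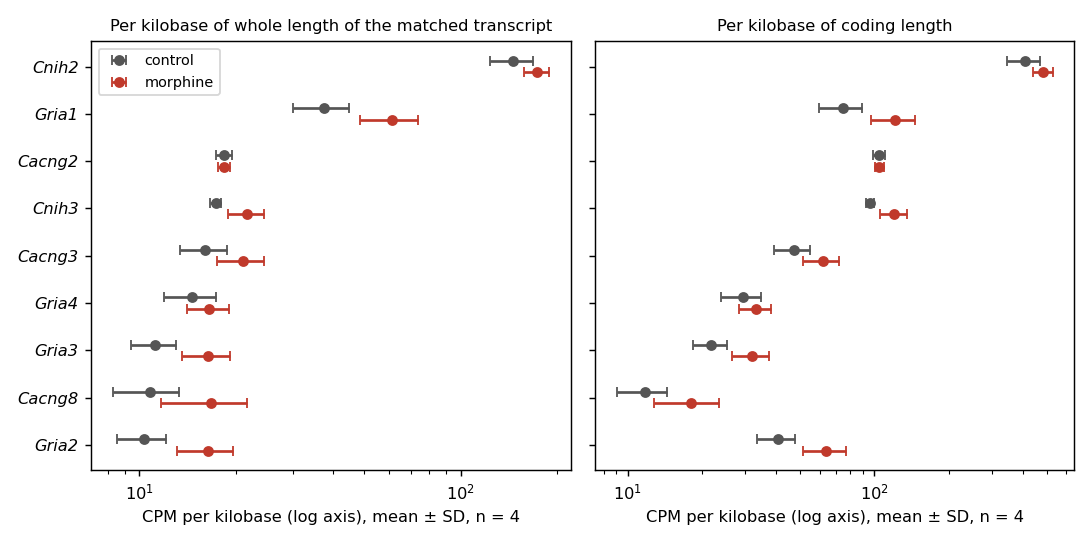
Level of the 9 genes as CPM per kilobase on a log axis, mean ± SD of 4 control (grey) and 4 morphine (red) libraries, per kilobase of the whole transcript (left) and of its coding length (right). Cnih2 is highest on both scales, and Gria2 goes from the 9th place on the left to the 6th on the right.

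Sex was compared by the labels, with condition in the model and 2 libraries of each labelled sex in a group, control replicate 5 among those labelled female. In edgeR 1 gene of 18939 (0.00528%), the X-inactivation transcript Xist, was called between female and male libraries, and 0% for the interaction of sex and morphine. At an unadjusted *P* under 0.05, 587 genes differed by sex and 325 in the interaction, and DESeq2 called 26 and 4. None of the 9 genes was among the genes at an unadjusted *P* under 0.05 in either comparison. Gria3, the X-linked subunit, had a log2 difference of −0.04 between female and male libraries (95% interval −0.36 to 0.28). Within the sexes, the log2 fold change of Gria1 was 0.49 in male and 0.91 in female libraries, and that of Cacng8 was 0.29 and 0.95. The difference of these changes was 0.43 for Gria1 (95% interval −0.32 to 1.18, edgeR adjusted *P* = 1.00) and 0.66 for Cacng8 (95% interval −0.29 to 1.61, edgeR adjusted *P* = 1.00), so a difference of either sign was within the error. Gria2 had log2 fold changes of 0.65 and 0.67 in the sexes. Without control replicate 5, which leaves 1 female control library that is assumed to vary like the others, the log2 fold change in female libraries was 0.64 for Gria1, 0.42 for Gria2 and 0.65 for Cacng8. The difference between the sexes was then 0.17 for Gria1 (95% interval −0.63 to 0.97) and 0.37 for Cacng8 (95% interval −0.64 to 1.38), and 0 genes were called for the interaction in edgeR (309 at an unadjusted *P* under 0.05).

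Around the receptor, 38 further genes were examined: other auxiliary subunits, genes of receptor biogenesis and export, scaffolds, pentraxins that cluster the receptor from outside, the endocytosis gene Arc and the RNA-editing enzymes. Of these, 0 were called in edgeR (0.195% of all genes) and 5 in DESeq2, all higher (1.7% of all genes higher and 0.929% lower). At an unadjusted *P* under 0.05 in edgeR 7 were higher and 1 was lower, where 6.79% of all genes were higher and 5.31% lower, 26 of 38 had a log2 fold change above 0, and the median was 0.13 as compared to 0.0088 over all genes, of which 51.4% were above 0. Among the 11 other auxiliary subunits 5 were at an unadjusted *P* under 0.05, all higher (median log2 fold change 0.25), beside the same 6.79% of all genes. Shisa6, which encodes an auxiliary subunit that keeps receptors at the synapse, stood at 56.2, 51.8, 58.0 and 49.8 CPM in the control and at 66.3, 89.2, 72.0 and 85.7 CPM in the morphine libraries. All morphine libraries of Shisa6 were above the control libraries, with a log2 fold change of 0.54 (SE 0.11), an adjusted *P* of 0.0817 in edgeR, and one of 0.0028 in DESeq2. Its relative Shisa7 had a log2 fold change of 0.91 (24.7 ± 3.69 and 46.6 ± 14.3 CPM, SD, n = 4 each), with an adjusted *P* of 0.107 in edgeR and 0.0036 in DESeq2. The groups overlapped for Shisa7, as morphine replicate 3 (27.7 CPM) lay below control replicate 2 (29.6 CPM). Olfm1, a secreted protein found with the receptor, was at 327 ± 45.2 and 440.2 ± 68.7 CPM without overlap (log2 fold change 0.43, edgeR adjusted *P* = 0.229).

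Of the 8 genes of biogenesis and export, 7 had a log2 fold change above 0 (51.4% of all genes) and 1 was higher at an unadjusted *P* under 0.05 (6.79% of all genes). This was Frrs1l, which acts in the assembly of the receptor in the endoplasmic reticulum, at 214 ± 15.0 CPM in the control and 271 ± 20.0 CPM in the morphine group, again without overlap (log2 fold change 0.34, SE 0.09, adjusted *P* of 0.172 in edgeR and 0.0205 in DESeq2). The pentraxin Nptx1 had the largest log2 fold change of the 38 genes, 1.07 (SE 0.29), from 57.1 ± 18.3 to 120.0 ± 46.2 CPM, and control replicate 6 (76.2 CPM) was just above morphine replicate 3 (74.1 CPM). Its adjusted *P* was 0.161 in edgeR and 0.0119 in DESeq2. The fifth gene called by DESeq2, named after its values were seen, was the auxiliary subunit Prrt1 (log2 fold change 0.59, DESeq2 adjusted *P* = 0.0350, edgeR adjusted *P* = 0.161). The 12 scaffolds and adaptors were split evenly, 6 above and 6 below 0, with a median log2 fold change of −0.0036 and 0 at an unadjusted *P* under 0.05 (6.79% of all genes higher and 5.31% lower). Arc, the only gene of endocytosis on the list, varied as much within the groups as between them (60.9 ± 44.0 and 68.9 ± 35.6 CPM). The 3 RNA-editing enzymes all had log2 fold changes below 0, the lowest being those of Adar (−0.32, 447 ± 70.5 and 358 ± 52.8 CPM, edgeR adjusted *P* = 0.400) and of Adarb1 (−0.26, 1550.0 ± 204 and 1296 ± 132 CPM, edgeR adjusted *P* = 0.451), the enzyme that edits the Gria2 transcript.

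**Figure D4:**
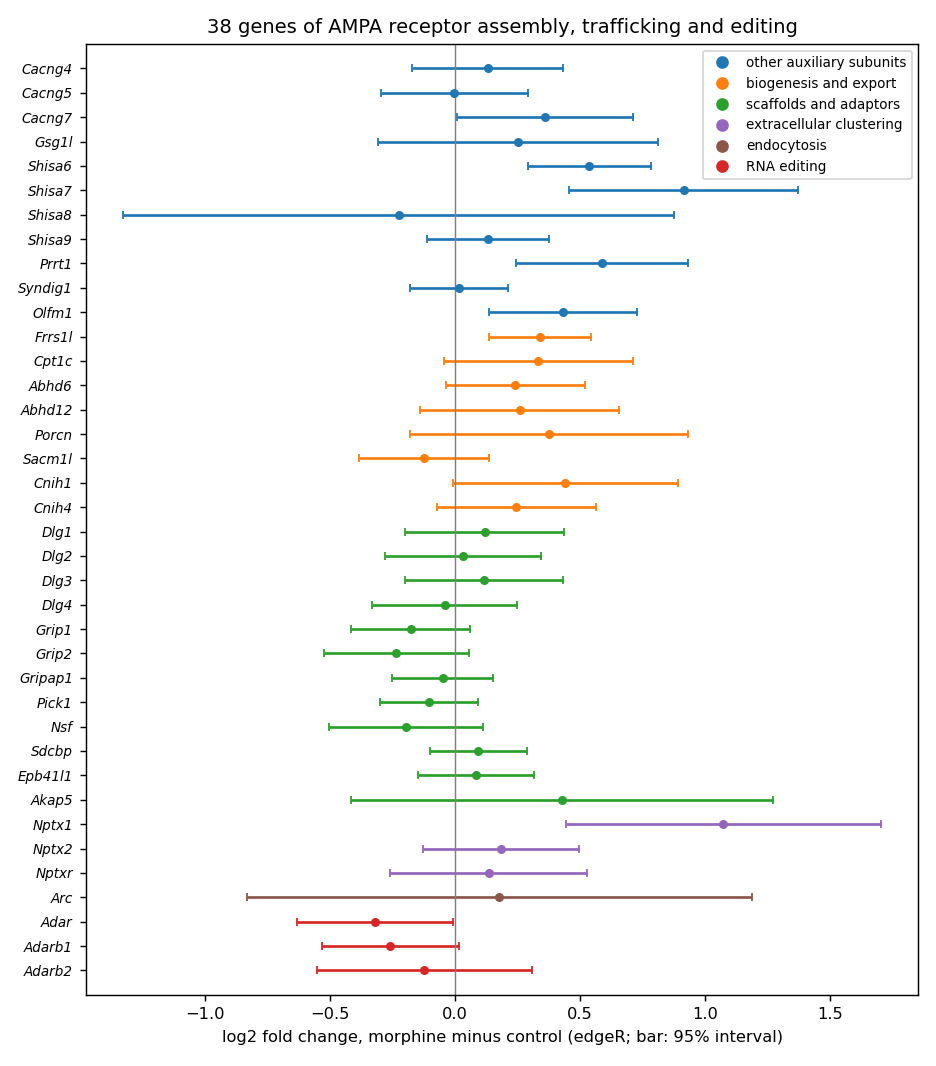
Log2 fold change, morphine minus control, of the 38 further genes with its 95% interval from edgeR (x axis), coloured by role. The auxiliary subunits and export genes lie mostly above 0, the scaffolds lie around 0, and the 3 RNA-editing enzymes lie below it.

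Genes whose log2 CPM followed each of the 9 most closely over the 8 libraries are given as a description, out of 14557 genes with enough counts; group, depth and cell content are shared by all points. They were Ust (Pearson r = 0.98) and Tnfrsf19 for Gria1, and Ephx4 (r = 0.99), Grm5, a metabotropic glutamate receptor, and D3Bwg0562e for Gria2. For Gria3 they were Mansc1 (r = 0.99), Tpcn1 and the calcium pump Atp2b2, and for Gria4 Hgsnat (r = 0.99), Mpdu1 and B4galt5. Cacng2 was followed by BC033916 (r = 0.97), LOC433374 and Atp5sl, Cacng3 by the muscarinic receptor Chrm1 (r = 0.98), Extl1 and Chsy3, and Cacng8 by Gdf10 (r = 0.98), Pcdh1 and Lrrc4. Cnih2 was followed by Samd8 (r = 0.97), Chst1 and Rab3d and Cnih3 by Klhl2 (r = 0.97), Fst and Vps37b.

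Markers of some cells outside the PVT differed between the groups. Of 13 markers of telencephalic pyramidal neurons, a class known for high AMPA receptor expression, 12 had a log2 fold change above 0 (median 0.88), 4 did not overlap with the morphine libraries above, 1 (Cux2) did not overlap with them below, and Bhlhe22 and Lmo3 were called in edgeR. Over all genes 51.4% were above 0, 3.34% had every morphine library above, 3.21% had every one below and 0.195% were called. At an unadjusted *P* under 0.05 in edgeR were 8 of the 13 (6.79% of all genes higher and 5.31% lower). DESeq2 called 6 of the 13 (1.7% of all genes higher and 0.929% lower). The summed CPM of the 13 markers was 572 to 954 in the control and 766 to 1382 in the morphine libraries, and their mean log2 CPM was 3.49, 3.60, 3.60 and 5.08 in control replicates 1, 2, 5 and 6 and 4.72, 5.71, 5.44 and 5.46 in morphine replicates 3, 4, 7 and 8. Control replicate 6 thus had more of these markers than morphine replicate 3. Neurod6 averaged 5.13 CPM in the control and 50.8 CPM in the morphine group. Of 11 choroid plexus markers, 10 were above 0 (median 1.97) and 6 had every morphine library above (3.34% of all genes), but 0 were called in edgeR (9 at an unadjusted *P* under 0.05, and 7 called in DESeq2, beside the shares given above). Their summed CPM was 43.3 to 159 in the control and 214 to 671 in the morphine libraries. The 10 thalamic markers had a median log2 fold change of −0.24, with 2 above 0 and 8 below. Their mean log2 CPM was 6.95 to 7.07 in the control and 6.53 to 7.04 in the morphine libraries, of which 3 lay below every control library. Summed CPM was 2567 to 3277 and 2005 to 3280. Hippocampal markers had a median of 0.17 (5 of 8 above 0), and their mean log2 CPM did not overlap between the groups, at 2.90 to 3.29 in the control and 3.31 to 3.96 in the morphine libraries, whereas their summed CPM overlapped (234 to 281 and 220 to 316) and 1 of 8 had every morphine library above. Oligodendrocyte markers were above 0 in 7 of 7 (median 0.56) and those of their precursors in 5 of 5 (median 0.46), and the mean log2 CPM of both lists overlapped between the groups. The medians were 0.37 for astrocytes, 0.25 for ependyma, 0.06 for GABAergic neurons, −0.03 for the medial habenula and −0.03 for microglia. None of the markers was at 0 in every library.

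With the telencephalic marker score in the edgeR model, the log2 fold changes were 0.33 for Gria1, 0.21 for Gria2, 0.44 for Gria3, 0.27 for Gria4, 0.11 for Cacng2, −0.04 for Cacng3, 0.14 for Cacng8, 0.03 for Cnih2 and 0.21 for Cnih3. With the choroid plexus score in the model, the values were 0.23 for Gria1, 0.23 for Gria2, 0.27 for Gria3, −0.09 for Gria4, 0.02 for Cacng2, 0.03 for Cacng3, 0.10 for Cacng8, 0.13 for Cnih2 and 0.25 for Cnih3. The score and the condition vary together over 8 libraries, and the standard errors were wider, with a median over the 9 genes of 0.22 for each score as compared to 0.14 for condition alone. The choroid plexus score did not overlap between the groups, at 0.21 to 2.34 in the control and 2.47 to 3.73 in the morphine libraries. The part of the other cell types in these differences cannot be told apart from that of condition by the 2 fits, and it was not tested further.

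**Figure D5:**
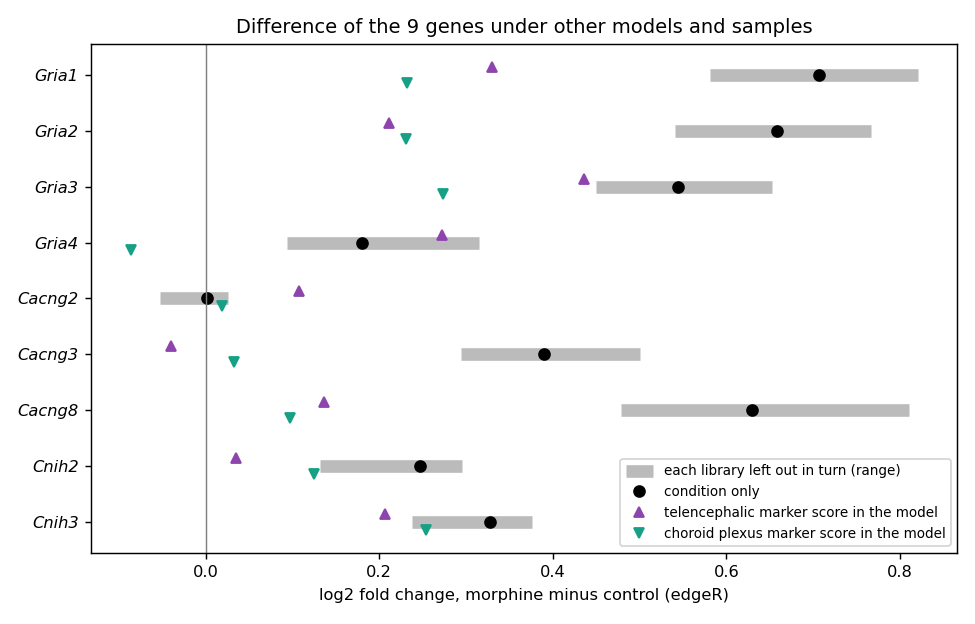
Log2 fold change of the 9 genes, morphine minus control, from edgeR with condition alone (black points), over the fits that left out each library in turn (grey bars, lowest to highest) and with the telencephalic (purple) or choroid plexus (green) marker score in the model. The grey bars stay above 0 for every gene but Cacng2, and the values with a marker score lie nearer to 0 for Gria1, Gria2, Gria3, Cacng3, Cacng8, Cnih2 and Cnih3.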

How the data were processed

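The authors deposited 1 table of read counts per RefSeq transcript and library (24488 transcripts of 18939 genes, 8 libraries), with mm10 named in the submitters' processing notes; the tool that made this table and its use of strand are not given in the sources used here. The study's methods describe Salmon and tximport, but this table counts a shared read on each transcript of a gene in whole numbers, unlike Salmon's estimates. The deposited counts are not normalized. Each gene was represented by the transcript with the highest total, with the sum over transcripts as an alternative. Counts were tested with edgeR 4.0.16 (R 4.3.3; TMM, glmQLFit and glmQLFTest) on condition, and *P* values were adjusted over the whole table by Benjamini-Hochberg. Single genes were compared by exact two-sided permutation tests of log2(CPM + 0.5). Alternatives were DESeq2 1.42.0, limma-voom (limma 3.58.1), other factors and filters, sex or a marker score (the mean log2 CPM of a marker list, prior count 2) in the model, and each library left out. Levels per coding length and the sex fits without control replicate 5 were added after the data were seen. Transcript lengths came from GENCODE M21, and gene positions from RefSeq on GRCm38.p6. PCR copies are not marked, so their share is not known and counting error may be understated.

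The 9 genes and all lists were chosen with earlier results of these data known. Of the 38 further genes, those called in edgeR, those whose groups did not overlap and the largest 2 rises and 2 falls in log2 fold change were named, and Prrt1 and Arc were added after their values were seen. For the genes most alike, the 3 with the highest Pearson r were named, except 1 that is not reported here. The labels give no sequencing batch.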

Additional observations from a re-analysis of the deposited data

How the results depend on the processing

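No paired analysis was possible because the control and morphine groups share no replicate numbers. The number of genes called between morphine and control in edgeR was 37, and it was 498 with DESeq2, 14 with filterByExpr, 15 with at least 10 counts in every library, 110 with sex in the model, 23 with limma-voom, 22 with the sum over transcripts, 1 with the telencephalic and 0 with the choroid plexus marker score in the model (637 at an unadjusted *P* under 0.05). It ranged from 0 (without morphine replicate 4 or 8) to 77 (without control replicate 6 or morphine replicate 3) when a library was left out. Of the 9 receptor genes 0 were called in edgeR in each of these fits and 3 in DESeq2, and of the 38 further genes 0 were called in edgeR with condition alone, with sex in the model and with the sum over transcripts, and 5 in DESeq2. Between the sexes the count was 1 in edgeR, 26 in DESeq2 and 0 to 5 with a library left out (5 without control replicate 5), and for the interaction it was 0 in edgeR, also without control replicate 5, and 4 in DESeq2.

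The log2 fold changes with a library left out were 0.58 to 0.82 for Gria1, 0.54 to 0.77 for Gria2, 0.45 to 0.65 for Gria3 and 0.24 to 0.38 for Cnih3, with an unadjusted *P* under 0.05 in 8 of 8 fits for each. They were 0.29 to 0.50 for Cacng3 (4 of 8 fits at an unadjusted *P* under 0.05), 0.48 to 0.81 for Cacng8 (5 of 8), 0.09 to 0.32 for Gria4 (1 of 8) and 0.13 to 0.30 for Cnih2 (1 of 8). The sign turned for Cacng2, at −0.0215 with upper-quartile factors, −0.0159 with filterByExpr and −0.0524 to 0.0263 with a library left out, for Cacng3 at −0.0393 with the telencephalic score and for Gria4 at −0.0863 with the choroid plexus score. With 4 libraries a group and these spreads, the standard errors of the 9 genes were 0.08 to 0.23 on the log2 scale, which limits what can be called.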
